A study of Mus musculus with 2 samples.

Results

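The 5α-reductases Srd5a1, Srd5a2 and Srd5a3, the hydroxysteroid dehydrogenases Hsd3b1, Hsd3b6, Hsd17b2 and Hsd17b11, the aldo-keto reductase Akr1c18 and the co-chaperone Fkbp5 were followed through the cell classes of mouse back skin and preputial gland (PG). These are 9 of the 32285 genes in the count tables, chosen by symbol for their role in making, inactivating or responding to steroids, and each symbol had 1 row in both tables. Samples of back skin and preputial glands came from 3 wild type male C57BL/6 mice aged 52 weeks. The material of the mice was pooled by tissue, dissociated enzymatically and made into 1 droplet-based single-cell library per tissue. Both groups were untreated and shared strain, sex and age. Pooled animals leave no spread between mice, and tissue and library cannot be told apart.

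Sebaceous glands and the PG, a modified sebaceous gland that opens beside the penis, are targets of androgens. 5α-reductases turn testosterone into the more potent dihydrotestosterone, 3β-hydroxysteroid dehydrogenases act earlier in the synthesis of steroids, and enzymes of the 17β-, 20α- and 3α-hydroxysteroid dehydrogenase groups interconvert active and weak steroids, so a cell can adjust the hormone it meets. FKBP5 binds the heat shock protein 90 complexes of steroid hormone receptors, and its transcription is commonly raised by glucocorticoids and other steroids. Which classes of cell carry the transcripts of these genes, and whether the skin and the PG differ within a class, were the questions asked of the tables.

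After barcodes with at least 500 genes, at least 1000 unique molecular identifiers (UMIs, each standing for 1 captured transcript) and at most 10% mitochondrial UMIs were kept, 8899 skin cells and 4699 PG cells remained, with median depths of 2386 and 2729 UMIs. Cells were named by how many markers of a class they held, so a name such as sebocyte-like means at least 3 of the listed markers. A cell that passed both the keratinocyte and the sebocyte gate was named sebocyte-like, so these cells are not free of keratinocyte markers. Sebocyte-like cells held a median of 3 keratinocyte and 3 sebocyte markers in skin, and of 3 and 4 in PG. In skin and PG there were 44 (0.494%) and 529 (11.3%) sebocyte-like, 5670 and 2444 keratinocyte-like, 904 and 523 fibroblast-like, 203 and 178 macrophage and dendritic-like and 79 and 47 endothelial-like cells. No class was given to 1162 skin cells (13.1%) and 617 PG cells (13.1%), and 194 and 104 cells had markers of several classes. The cells without a class held 23.7% of the Fkbp5 and 14.4% of the Srd5a1 UMIs of skin, and 13.1% and 5.43% of those of PG. No marker of another class stood among the 10 leading genes of any class, but the same markers had named the cells, so this is no independent check. Of the 10 leading genes, 5 were sebocyte markers in skin sebocyte-like cells and 1 in those of PG. Of the 44 skin sebocyte-like cells, 23 held only the minimum of 3 sebocyte markers. A further 19 skin cells that also carried suprabasal or hair markers were set apart. Clustering gave no skin cluster made mostly of sebocyte-like cells, so every skin sebocyte value rests on a small set of cells chosen by marker. Both libraries are labelled with the same 3′ kit, but their barcode lists differ in length, with 6794880 entries for skin and 737280 for PG, so the chemistry of a library may differ from its label. In every PG over skin ratio such a difference cannot be told apart from the tissue. No kept cell of the skin shared its barcode with a kept cell of the PG.

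Levels are UMIs of a gene among 1000000 UMIs of the class (CPM), and ratios are of CPM. Brackets give 95% intervals. They hold counting error alone and no spread between animals, and with 1 library per tissue there is no test. A gene was called higher or lower where the ratio was at least 2-fold and the groups together held at least 10 UMIs. A 3′ library counts transcripts from their ends, and levels are compared between classes for the same gene, not between genes.

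The sequences before the start sites are shown for Srd5a1 and Fkbp5, which were higher in sebocyte-like than in keratinocyte-like cells of both tissues, and Akr1c18, whose ratio had opposite signs in the tissues. Of the 9 genes, 8 matched a promoter in the RefSeq table (GRCm38.p6), which covers 300 bases around a start site. The windows shown are chr13:69611414-69611713 for Srd5a1, chr17:28486100-28486399 for Fkbp5 and chr13:4150597-4150896 for Akr1c18, all on the minus strand and written 5′ to 3′, and the Fkbp5 start lies inside the annotated gene. Capitals mark GC boxes (GGGCGG) and CCAAT boxes on either strand, and in Fkbp5 the last CCAAT box directly follows a GC box.
Srd5a1: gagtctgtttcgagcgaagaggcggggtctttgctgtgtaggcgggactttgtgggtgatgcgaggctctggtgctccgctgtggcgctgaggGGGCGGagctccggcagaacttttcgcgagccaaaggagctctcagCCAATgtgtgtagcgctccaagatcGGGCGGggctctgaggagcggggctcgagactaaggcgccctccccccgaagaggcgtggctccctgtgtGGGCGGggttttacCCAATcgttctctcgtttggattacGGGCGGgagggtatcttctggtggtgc
Fkbp5: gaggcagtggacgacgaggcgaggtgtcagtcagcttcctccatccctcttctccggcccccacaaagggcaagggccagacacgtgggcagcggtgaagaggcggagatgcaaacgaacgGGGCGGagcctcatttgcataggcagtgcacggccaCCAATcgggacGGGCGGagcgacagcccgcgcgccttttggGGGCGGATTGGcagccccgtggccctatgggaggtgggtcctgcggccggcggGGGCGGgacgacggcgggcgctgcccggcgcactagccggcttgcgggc
Akr1c18: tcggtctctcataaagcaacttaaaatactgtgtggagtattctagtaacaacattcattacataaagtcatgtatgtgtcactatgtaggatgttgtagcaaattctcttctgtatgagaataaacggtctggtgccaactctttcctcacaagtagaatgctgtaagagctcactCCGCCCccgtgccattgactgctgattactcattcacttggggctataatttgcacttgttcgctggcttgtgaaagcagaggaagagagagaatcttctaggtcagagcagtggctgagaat
The Srd5a1 and Fkbp5 windows each held 4 GC boxes and 2 CCAAT boxes, with 24 and 32 CpG dinucleotides and a GC content of 63% and 70.7%. The Akr1c18 window held 1 GC box, no CCAAT box and 5 CpG dinucleotides, with a GC content of 42.3%. Over all 32851 promoters of the table, 35.7% held a GC box and 37.4% a CCAAT box, the median GC content was 52.7% and the median number of CpG dinucleotides was 7. A TATA box (TATAAA), present in 13.6% of all promoters, was in none of the 8 windows. The steroid receptor hexamer AGAACA, present in 19.0% of all promoters, was found only in Hsd3b6, with 2 matches, and the palindrome in which its reverse complement follows after any 3 bases was in none of the 8 windows and in 3 promoters of the whole table. Srd5a2 held 2 and Srd5a3 held 3 GC boxes, Hsd17b11 held 1 GC box and 1 CCAAT box, and Hsd3b1 held 1 CCAAT box. These letters describe the windows and say nothing about binding.

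By the GRCm38 annotation, Srd5a1 lies at chr13:69573449-69611442 and Akr1c18 at chr13:4132615-4150654 on the minus strand, Srd5a2 at chr17:74016955-74047916 and Fkbp5 at chr17:28399094-28517527 on the minus strand, and Srd5a3 at chr5:76140271-76155504 on the plus strand. Hsd17b11 lies at chr5:103989762-104021919 on the minus strand, Hsd17b2 at chr8:117701904-117759027 on the plus strand, and Hsd3b1 and Hsd3b6 are neighbours on the minus strand, at chr3:98852194-98859794 and chr3:98805504-98814443. UMIs were counted per gene, so no exon or UTR can be assigned to them. Of the 31-base words in the last 500 bases of Hsd3b6, 41.7% also occur in 8 other genes, so its UMIs are uncertain. The share was 6.42% for Srd5a3, 2.77% for Hsd3b1 and 0% for the other members. Another annotated gene overlaps Srd5a1, Srd5a2, Hsd17b2 and Fkbp5 on the same strand.

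Of the isoenzymes that reduce testosterone, Srd5a1 was the one captured in the gland cells of both tissues. In skin it stood at 87.9 CPM (52.9 to 137, 19 UMIs in 11 of 44 cells) in sebocyte-like cells, at 24.1 CPM (17.0 to 33.0) in hair matrix-like cells, at 20.1 CPM (18.1 to 22.3, 356 UMIs) in keratinocyte-like cells, at 7.76 CPM (4.24 to 13.0, 14 UMIs) in fibroblast-like cells and at 2.31 CPM (1 UMI) in macrophage and dendritic-like cells. The PG level was 62.1 CPM (53.8 to 71.4, 199 UMIs in 160 of 529 cells) in sebocyte-like cells, 27.7 CPM (17.4 to 42.0, 22 UMIs) in fibroblast-like cells and 22.8 CPM (19.5 to 26.3, 179 UMIs) in keratinocyte-like cells, and no UMI was found in macrophage and dendritic-like cells, where 3 counts would be 7.98 CPM. Sebocyte-like cells therefore lead in both orders, the hair matrix-like and keratinocyte-like intervals overlap in skin, and the fibroblast-like and keratinocyte-like intervals overlap in PG. Endothelial-like cells held no Srd5a1 UMI in either tissue.

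The ratio of sebocyte-like over keratinocyte-like cells was 4.36-fold in skin (log2 2.13, 1.38 to 2.79) and 2.73-fold in PG (log2 1.45, 1.15 to 1.75). Between the tissues, the sebocyte-like level was 1.41-fold lower in PG, with an interval that includes no difference (log2 -0.50, -1.18 to 0.26). Fibroblast-like cells differed more, with Srd5a1 3.57-fold higher in PG (log2 1.84, 0.81 to 2.92). The free RNA of the PG suspension, read from barcodes of at most 50 UMIs, held Srd5a1 at 47.2 CPM against 16.9 CPM in skin. PG fibroblast-like cells had a median of 0 keratinocyte and 0 sebocyte markers and an estimated 13.0% of free RNA. The fibroblast-like log2 ratio was 1.80 after subtraction of free RNA. The gate counted markers only above a set level of free RNA and left out cells with several markers of an unrelated class. The marker medians therefore cannot show how much free RNA these cells held. The estimated share and the subtracted ratio come from the same gated cells and are no independent check.

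Within the sebocyte-like cells, 2 groups were named by late markers (Awat2, Elovl3, Soat1, Cidea, Plin2, Far2) and basal markers (Krt5, Krt14, Krt15, Col17a1). Late-like cells had at least 3 late and fewer than 2 basal markers. Those called cells with basal markers had at least 2 basal and fewer than 3 late markers. In skin the groups held 13 and 10 of 44 cells, in PG 52 and 30 of 529, so most PG sebocyte-like cells were in neither. Late-like cells held Srd5a1 at 175 CPM (93.3 to 299.6, 13 UMIs, in 6 of 13 cells) in skin. In PG they held 76.7 CPM (52.8 to 108, 33 UMIs). Those with basal markers held 51.9 CPM (3 UMIs) in skin and 35.7 CPM (14.4 to 73.6, 7 UMIs) in PG. Both ratios were above 2-fold, at 3.38-fold (log2 1.76, -0.11 to 4.21) and 2.15-fold (log2 1.10, -0.10 to 2.52), and both intervals include no difference. Cells between keratinocyte-like and sebocyte-like, with 2 sebocyte markers, were intermediate, at 38.03 CPM (25.1 to 55.3) in skin and 39.4 CPM (27.6 to 54.6) in PG. In skin keratinocytes the level was 27.0 CPM in suprabasal-like and 15.2 CPM in basal-like cells, a ratio of 1.78-fold (log2 0.83, 0.46 to 1.20).

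After every cell was thinned to 1000 UMIs, 4.73% of PG sebocyte-like cells (3.08% to 6.90%) and 6.82% of skin sebocyte-like cells (1.43% to 18.7%, 3 cells) had an Srd5a1 UMI, against 2.17% and 1.71% of keratinocyte-like cells. Unthinned, the shares were 30.2% and 25% of sebocyte-like cells, at median depths of 5860 and 4530.5 UMIs, and 6.997% and 5.84% of keratinocyte-like cells, at 2892 and 2560 UMIs. Of 178 PG and 203 skin macrophage and dendritic-like cells, at median depths of 1853 and 1892 UMIs, 0 had a UMI after thinning, where 3 such cells would be 1.69% and 1.48%.

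**Figure D1:**
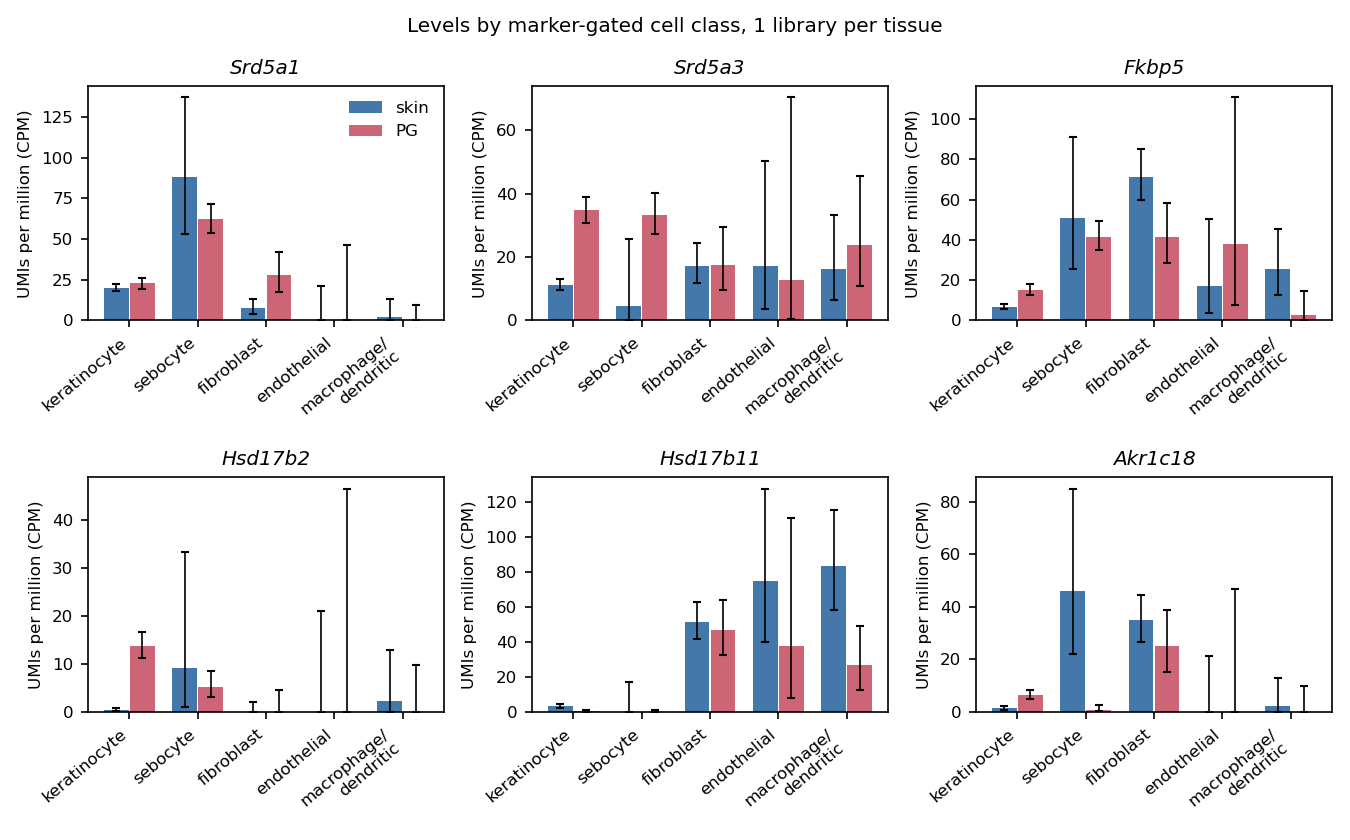
Levels of the 6 members with enough UMIs, in CPM, in 5 marker-gated classes of skin (blue) and PG (red), with bars for the class level and error bars for exact 95% Poisson intervals. Srd5a1 is tallest in sebocyte-like cells of both tissues (87.9 and 62.1 CPM), Hsd17b11 is at 0 there, and Akr1c18 is at 46.2 CPM in skin and 0.937 CPM in PG sebocyte-like cells.

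Srd5a2, the isoenzyme best known from the prostate, was barely captured, with 1 UMI in skin, in a keratinocyte-like cell, and 5 in PG, of which 3 were in keratinocyte-like cells and 1 in a sebocyte-like cell. At this depth its distribution could not be described.

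Srd5a3 encodes a polyprenol reductase that makes dolichol for protein glycosylation and is grouped with the 5α-reductases by sequence. Its levels showed no sebocyte class pattern in PG, where sebocyte-like cells held 33.4 CPM (27.4 to 40.4, 107 UMIs) and keratinocyte-like cells 34.7 CPM (30.7 to 39.1, 273 UMIs), with a log2 ratio of -0.05 (-0.39 to 0.27). Keratinocyte-like cells of PG exceeded those of skin, at 11.3 CPM (9.75 to 12.9, 199 UMIs), by 3.08-fold (log2 1.62, 1.36 to 1.90). The basal-like cells repeated this at 32.7 against 12.9 CPM (2.53-fold, log2 1.34, 0.95 to 1.73), while the duct-like cells, at 41.1 against 23.0 CPM, differed by 1.79-fold (log2 0.84, 0.13 to 1.60). In fibroblast-like cells the levels were 17.6 CPM (14 UMIs) in PG and 17.2 CPM (31 UMIs) in skin, and macrophage and dendritic-like cells held 23.9 and 16.2 CPM.

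The skin sebocyte-like cells held a single Srd5a3 UMI (4.62 CPM, 0.117 to 25.8), which gives a PG over skin ratio of 7.23-fold (log2 2.85, 0.34 to 8.17) and a ratio to skin keratinocyte-like cells of log2 -1.28 (-6.59 to 1.21). Both depend on how the cells were gated. When cells with suprabasal or hair markers, which held 6 UMIs in skin, were counted as sebocyte-like, the log2 ratios were 0.93 and 0.64, and under a stricter gate the PG over skin value was 0.36.

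Hsd3b1, the 3β-hydroxysteroid dehydrogenase of mouse adrenal and gonad, had no UMI in any cell of either tissue. Hsd3b6, which has been described in adrenal, testis and skin, had 5 UMIs in skin and 2 in PG. In skin 3 of the 5 were in sebocyte-like cells (13.9 CPM, 2.86 to 40.5), and all 3 of these cells carried late markers. Both PG UMIs were in late-like sebocytes too (4.65 CPM, 0.563 to 16.8). The counts are too low for a call, and with the sequence shared among Hsd3b genes they cannot be given to this gene alone with certainty.

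Hsd17b2 oxidizes estradiol and testosterone to weaker 17-keto steroids, and 75.7% of its UMIs in PG were in keratinocyte-like cells. PG keratinocyte-like cells held 13.9 CPM (11.4 to 16.7, 109 UMIs in 80 cells), skin keratinocyte-like cells 0.339 CPM (0.125 to 0.739, 6 UMIs in 5670 cells), and the ratio was 40.8-fold (log2 5.35, 4.18 to 6.83). No other member differed as much between the keratinocyte-like cells of the tissues. The mix of cells differed, with 377 of 2444 keratinocyte-like cells duct-like in PG and 324 of 5670 in skin. Its part in the ratio was not tested. Basal-like cells alone held Hsd17b2 at 6.00 CPM in PG and 0.323 CPM (0.067 to 0.944, 3 UMIs) in skin. The free RNA of PG held Hsd17b2 at 6.59 CPM, and that of skin held none.

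Within the keratinocyte-like cells of PG, the level was highest in those with markers of the upper follicle and duct (Krt79, Krt17, Cst6, Defb6, Krt6a). These 377 cells held 42.3 CPM (33.1 to 53.4, 71 UMIs in 44 cells), which is 49.3% of all Hsd17b2 UMIs in PG cells. PG basal-like cells held 6.00 CPM (3.67 to 9.27, 20 UMIs), 7.05-fold less than the duct-like cells (log2 2.82, 2.09 to 3.61). The 324 duct-like cells of skin held none, so that their PG counterparts were at least 13.5-fold higher, taking the limit as 3 counts. After thinning, 4.24% of PG duct-like cells (2.44% to 6.80%) had a UMI (11.7% unthinned, median depth 4015 UMIs), and so did 0 of 523 PG fibroblast-like cells (median depth 1349 UMIs), of which 3 would be 0.574%.

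In PG sebocyte-like cells Hsd17b2 stood at 5.31 CPM (3.09 to 8.50, 17 UMIs), 2.61-fold below keratinocyte-like cells (log2 -1.38, -2.22 to -0.64) and near the level of the free RNA. In skin sebocyte-like cells it stood at 9.25 CPM on 2 UMIs, with a log2 ratio of 4.77 (1.43 to 7.25) over keratinocyte-like cells. Of the 19 UMIs of skin, 5 were in 3 of the 19 cells set apart for suprabasal or hair markers. Fibroblast-like cells held none in either tissue.

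Hsd17b11, a lipid droplet enzyme that can act on 5α-androstanediol, had the reverse distribution by level, higher in stroma and immune cells than in keratinocyte-like cells. By count, Hsd17b11 had 22.1% of its skin UMIs and 4.23% of its PG UMIs in keratinocyte-like cells. In skin it stood at 83.3 CPM (58.3 to 115, 36 UMIs) in macrophage and dendritic-like, 74.7 CPM (39.8 to 128, 13 UMIs) in endothelial-like, 72.4 CPM (6 UMIs) in melanocyte-like, 61.5 CPM (3 UMIs) in contractile, 51.5 CPM (41.6 to 63.1, 93 UMIs) in fibroblast-like and 35.2 CPM (3 UMIs) in T cell-like cells, and at 3.34 CPM (2.54 to 4.31, 59 UMIs) in keratinocyte-like cells. The intervals of the stromal and immune classes overlap, and those of the 3 best covered lie above the keratinocyte-like interval. The PG level was 46.6 CPM (32.8 to 64.3, 37 UMIs) in fibroblast-like, 37.9 CPM (3 UMIs) in endothelial-like and 26.6 CPM (12.8 to 48.9, 10 UMIs) in macrophage and dendritic-like cells, and 0.381 CPM (3 UMIs in 2444 cells) in keratinocyte-like cells.

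No Hsd17b11 UMI was found in sebocyte-like cells of either tissue. In PG this limits the level to 0.937 CPM at 3 counts, in skin only to 13.9 CPM, so fibroblast-like cells were at least 49.8-fold higher in PG and at least 3.71-fold higher in skin. Fibroblast-like over keratinocyte-like ratios were 15.4-fold in skin (log2 3.95, 3.46 to 4.44) and 122-fold in PG (log2 6.93, 5.27 to 9.28). The tissues did not differ beyond counting error in fibroblast-like cells (log2 -0.14, -0.73 to 0.42), while the level was lower in PG in macrophage and dendritic-like cells (3.13-fold, log2 -1.65, -2.82 to -0.61) and in keratinocyte-like cells (8.75-fold, log2 -3.13, -5.45 to -1.51). The free RNA of both libraries held it, at 8.91 CPM in skin and 7.61 CPM in PG, above the level in keratinocyte-like cells of either. Within skin keratinocytes the duct-like cells, at 8.36 CPM (8 UMIs), were 2.59-fold above basal-like cells (log2 1.37, 0.04 to 2.53).

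Akr1c18, the 20α-hydroxysteroid dehydrogenase that inactivates progesterone, was carried by fibroblast-like cells of both tissues, at 34.9 CPM (26.8 to 44.7, 63 UMIs) in skin and 25.2 CPM (15.4 to 38.9, 20 UMIs) in PG, and the tissues did not differ beyond counting error (log2 -0.47, -1.27 to 0.28). The epithelium differed in both directions. Sebocyte-like cells held 46.2 CPM (22.2 to 85.0, 10 UMIs in 5 of 44 cells) in skin and 0.937 CPM (0.193 to 2.74, 3 UMIs in 529 cells) in PG, 49.4-fold lower (log2 -5.63, -8.12 to -3.67). Keratinocyte-like cells held 1.41 CPM (0.915 to 2.09, 25 UMIs in 15 cells) in skin and 6.48 CPM (4.83 to 8.53, 51 UMIs in 35 cells) in PG, 4.58-fold higher (log2 2.20, 1.48 to 2.95). The sebocyte-like over keratinocyte-like log2 ratio was thus 5.03 (3.81 to 6.14) in skin and -2.79 (-5.12 to -1.16) in PG.

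Of the 10 skin sebocyte UMIs, 7 were in 3 late-like cells and 3 in 2 cells with basal markers, and the most in any cell was 3. Among PG keratinocytes, as for Hsd17b2, the duct-like cells were above the basal-like cells, at 13.1 CPM (8.22 to 19.9, 22 UMIs), 4.37-fold (log2 2.13, 0.99 to 3.37). The 30 suprabasal-like cells of PG held Akr1c18 at 18.2 CPM (2.20 to 65.7) on 2 UMIs. The 10 UMIs of PG basal-like cells were in 5 cells, and 6 of them in the same cell. Duct-like cells of skin held 1 UMI, and the PG over skin log2 ratio there was 3.65 (1.02 to 9.02). The free RNA held 4.46 CPM in skin and 5.58 CPM in PG, so the PG keratinocyte-like level as a whole was close to that of the suspension.

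Fkbp5 was highest in fibroblast-like and sebocyte-like cells among the well-covered classes. In skin it stood at 71.5 CPM (59.7 to 84.9, 129 UMIs) in fibroblast-like, 50.9 CPM (25.4 to 91.0, 11 UMIs) in sebocyte-like, 25.4 CPM (12.7 to 45.5, 11 UMIs) in macrophage and dendritic-like and 6.73 CPM (5.58 to 8.06, 119 UMIs) in keratinocyte-like cells. In PG the fibroblast-like and sebocyte-like levels were 41.6 CPM (28.6 to 58.4, 33 UMIs) and 41.5 CPM (34.8 to 49.2, 133 UMIs), and the keratinocyte-like level was 15.1 CPM (12.5 to 18.1, 119 UMIs). The fibroblast-like and sebocyte-like intervals overlap in both tissues, and both lie above the keratinocyte-like interval. T cell-like cells held 70.3 CPM (6 UMIs in 58 cells) in skin and 78.4 CPM (2 UMIs in 15 cells) in PG.

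Sebocyte-like over keratinocyte-like cells, Fkbp5 was 7.56-fold higher in skin (log2 2.92, 1.88 to 3.81) and 2.75-fold higher in PG (log2 1.46, 1.09 to 1.83), and fibroblast-like over keratinocyte-like cells 10.6-fold (log2 3.41, 3.04 to 3.78) and 2.75-fold (log2 1.46, 0.86 to 2.03). The tissues differed in opposite ways between classes. Keratinocyte-like cells were 2.25-fold higher in PG (log2 1.17, 0.79 to 1.55), fibroblast-like cells 1.72-fold lower (log2 -0.78, -1.38 to -0.22) and macrophage and dendritic-like cells 9.57-fold lower on 1 UMI (log2 -3.26, -8.69 to -0.48), while sebocyte-like cells did not differ beyond counting error (log2 -0.29, -1.18 to 0.74). Basal-like cells held 59 of the 119 UMIs of PG keratinocyte-like cells, at 17.7 CPM (13.5 to 22.8). The duct-like cells, at 6.56 CPM (3.27 to 11.7, 11 UMIs), were 2.70-fold lower than these (log2 -1.43, -2.51 to -0.49), the reverse of Hsd17b2 and Akr1c18. The free RNA held Fkbp5 at 22.3 CPM in PG and 12.5 CPM in skin, and thinned shares of cells with a UMI were 7.41% (12.7% unthinned) and 4.21% (6.12%) of skin and PG fibroblast-like cells against 0.653% (1.89%) and 1.55% (4.71%) of keratinocyte-like cells.

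**Figure D2:**
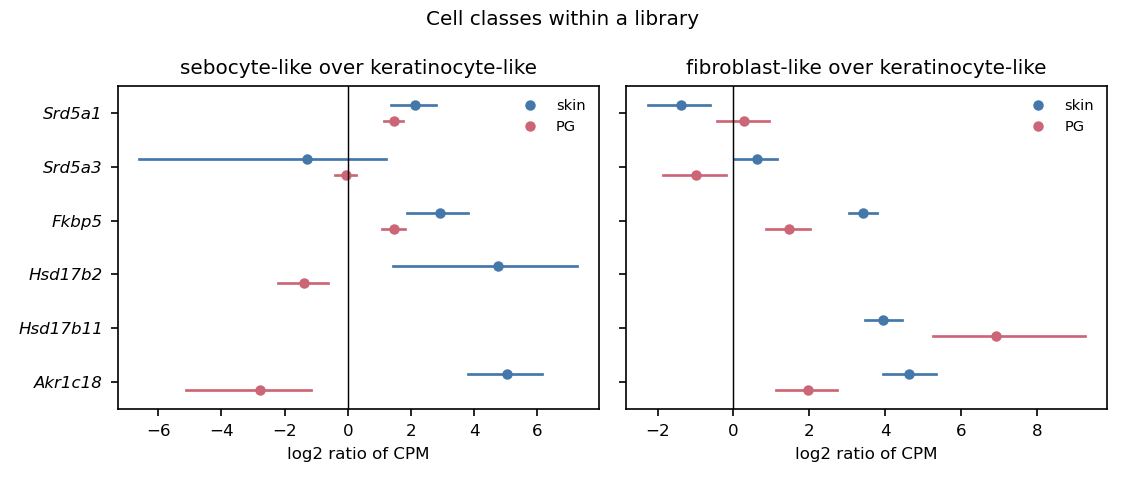
Log2 ratios of CPM between classes of the same library, sebocyte-like over keratinocyte-like on the left and fibroblast-like over keratinocyte-like on the right, for skin (blue) and PG (red), with points for the ratio and lines for exact 95% intervals. Srd5a1 and Fkbp5 lie right of 0 in sebocyte-like cells of both tissues, and Akr1c18 lies at 5.03 in skin and -2.79 in PG, while ratios against a class without UMIs, such as Hsd17b11 in sebocyte-like cells, are not drawn.

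Read as a group, 5 members could be compared between sebocyte-like and keratinocyte-like cells of skin, of which 3 were higher (Srd5a1, Akr1c18, Fkbp5) and 1 lower (Srd5a3, on 1 UMI). Among all genes compared there, 16.2% were higher and 10.2% lower, and the median log2 ratio was 2.13 for the members and 0.00 for all genes. In PG 2 of 5 were higher (Srd5a1, Fkbp5) and 2 lower (Hsd17b2, Akr1c18), where 8.57% of all genes were higher and 21.9% lower. Fibroblast-like over keratinocyte-like cells, 3 of 5 members were higher (Hsd17b11, Akr1c18, Fkbp5) and Srd5a1 lower in skin, against 21.6% and 18.1% of all genes, and the same 3 of 6 were higher in PG and Hsd17b2 lower, against 22.4% and 18.5%.

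Between the tissues, 4 of the 6 members compared in keratinocyte-like cells were higher in PG (Srd5a3, Hsd17b2, Akr1c18, Fkbp5) and Hsd17b11 was lower, where 17.6% of all genes were higher and 20.9% lower. Their median log2 ratio was 1.40, and that of all genes -0.02. In sebocyte-like cells 1 of 5 was higher (Srd5a3) and 1 lower (Akr1c18), against 14.1% and 20% of all genes. In fibroblast-like cells 1 of 5 was higher (Srd5a1) and none lower, against 12% and 10.4%, and in macrophage and dendritic-like cells 2 of 3 were lower (Hsd17b11, Fkbp5) and none higher, against 21.6% and 12%.

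Within the keratinocytes of PG, 2 of 5 members were higher (Hsd17b2, Akr1c18) and 1 lower (Fkbp5) in duct-like than in basal-like cells, where 8.36% of all genes were higher and 28% lower. In skin the same comparison gave 1 of 4 higher (Hsd17b11) and none lower, against 8.52% and 14.5%, and suprabasal-like over basal-like cells gave none of 4 in either direction, against 8.39% higher and 22.8% lower. Between the tissues, 2 of 5 were higher in duct-like cells of PG (Hsd17b2, Akr1c18) and none lower, against 15.9% and 21.2%, and 4 of 6 were higher and 1 lower in basal-like cells, against 18.7% and 18.1%. Fibroblast-like over sebocyte-like cells, 2 of 5 were higher (Srd5a3, Hsd17b11) and Srd5a1 lower in skin, against 22.4% and 19.8%, and 2 of 6 were higher (Hsd17b11, Akr1c18) and Srd5a1 lower in PG, against 28.6% and 21.5%. Late-like sebocytes were above those with basal markers for 1 of 3 members in PG, where 15% of all genes were higher and 19.1% lower, and for 1 of 2 in skin, against 23.6% and 19.1%, which was Srd5a1 both times. The PG call was lost under a limit of 1000 genes and 2000 UMIs, with doublets removed and with the cells set apart counted as sebocyte-like.

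Macrophage and dendritic-like cells were above keratinocyte-like cells for 2 of 5 members in skin (Hsd17b11, Fkbp5) and below for Srd5a1, against 17.1% and 18.7% of all genes. In PG 1 of 6 was higher (Hsd17b11) and 2 lower (Srd5a1, Fkbp5), against 15.1% and 27.1%. Endothelial-like cells of skin were above for 2 of 5 (Hsd17b11, Fkbp5), against 21.6% higher and 10.6% lower, and hair matrix-like cells were below for 2 of 5 (Hsd17b11, Fkbp5), where 14.1% were higher and 17% lower. The endothelial-like Fkbp5 level was 17.2 CPM (3.56 to 50.4, 3 UMIs). Hair matrix-like cells held Fkbp5 at 3.17 CPM (1.03 to 7.39, 5 UMIs) and Hsd17b11 at 0.633 CPM (0.016 to 3.53, 1 UMI). These intervals include the keratinocyte-like levels. The members were few, so these shares describe them and are not set apart from the rest by a test.

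**Figure D3:**
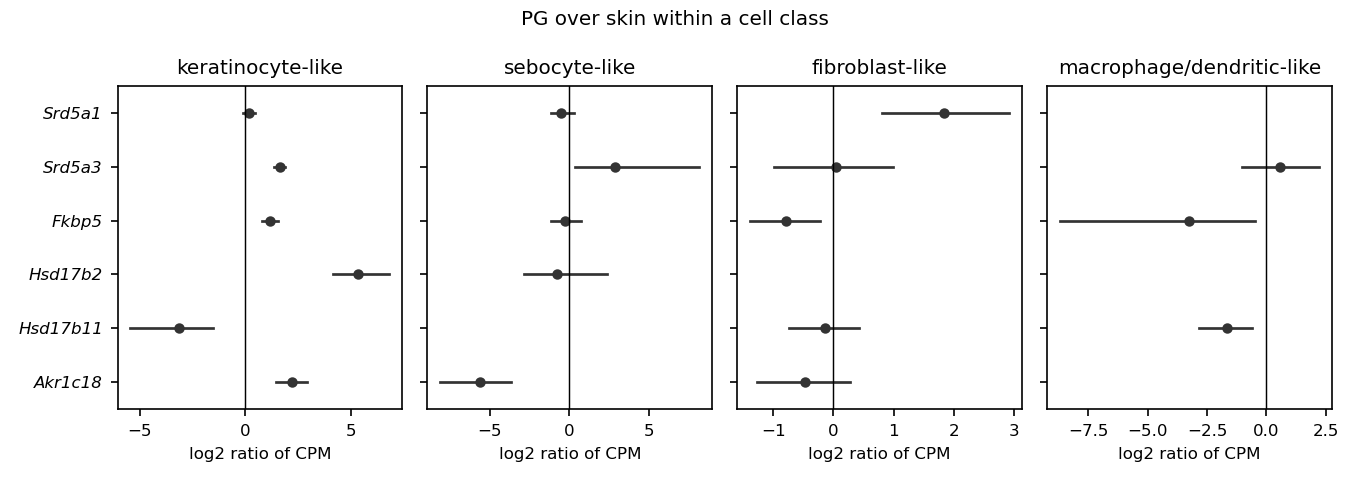
Log2 ratios of CPM, PG over skin, within 4 classes, with points for the ratio and lines for exact 95% intervals, and each panel with a scale of its own. In keratinocyte-like cells Hsd17b2 lies at 5.35 and Hsd17b11 at -3.13, in sebocyte-like cells Akr1c18 lies at -5.63, and in fibroblast-like cells Srd5a1 lies at 1.84.

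UMIs of 7 pairs of members were counted on the same cells in 4 classes. In PG sebocyte-like cells, 160 had an Srd5a1 UMI, 115 an Fkbp5 UMI and 37 both, where the product of the shares gives 34.8 cells. In PG duct-like cells, 44 had an Hsd17b2 UMI, 62 an Srd5a3 UMI and 13 both, where the product gives 7.24. In skin fibroblast-like cells, 87 had an Hsd17b11 UMI, 115 an Fkbp5 UMI and 13 both, where the product gives 11.1. Other pairs met less often than the product, with 24 PG sebocyte-like cells for Srd5a1 and Srd5a3 beside 28.4. No PG fibroblast-like cell held both Hsd17b11 and Fkbp5, where the product gives 2.14, or both Srd5a1 and Fkbp5, where it gives 1.28, and no skin fibroblast-like cell held the latter pair, where it gives 1.65. Cells of greater depth are more likely to hold any pair, and these counts were not corrected for it.

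Genes with the most similar pattern were found by Pearson correlation of log2(CPM + 1) over 13 tissue and class groups among 7314 genes, as a description, since the groups share libraries and depth. For Srd5a1 these were Celsr2 (0.95), Tmem19 (0.92) and Oxct1 (0.91), for Hsd17b2 Chdh (0.85), Vav3 (0.82) and Mc5r, the melanocortin receptor of sebaceous glands (0.81), and for Hsd17b11 Vim, the intermediate filament of mesenchymal and immune cells (0.97), Ifi203 (0.97) and Crip1 (0.96). Chdh and Vav3 were highest in skin sebocyte-like cells and Mc5r in PG sebocyte-like cells. Hsd17b2 itself was lower in PG sebocyte-like than in PG keratinocyte-like cells (5.31 against 13.9 CPM). Its skin sebocyte-like level rests on 2 UMIs. For Akr1c18 the most similar genes included Gpc3 (0.93) and S1pr3 (0.92), those for Fkbp5 were Retreg2 (0.77), Pik3r1 (0.76) and Iqsec1 (0.76), and those for Srd5a3 were Napa (0.83), Cers2 (0.78) and Atp6v0c (0.78). The genes named depend on the measure. By rank (Spearman) correlation the leading genes for Srd5a1 were Fa2h (0.95), Chchd6 (0.94) and Aldh3b2 (0.93). For Srd5a3, Hsd17b11 and Fkbp5, too, none of the genes named here was among the leading genes by rank.

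The other genes of the steroid pathway were taken from 8 lists of 58 genes, of which 54 were in the tables and 8 had no UMI in any kept cell (Hsd3b3, Hsd3b4, Hsd3b5, Hsd17b3, Akr1c6, Akr1c20, Cyp11b1 and Cyp19a1, the aromatase). Of the Hsd3b list, which goes by gene name, Hsd3b7 was captured. Its substrates were not tested, so its level does not show synthesis of steroid hormones. Hsd3b7 stood at 13.1 CPM in skin and 27.3 CPM in PG keratinocyte-like cells, and at 28.8 and 100.8 CPM in fibroblast-like cells. PG sebocyte-like cells held Hsd3b7 at 60.0 CPM (192 UMIs). Those of skin held none, where 3 counts would be 13.9 CPM. Cyp11a1, of the first, cholesterol-cleaving step, had no UMI in any kept cell of skin and 4 in PG, all in keratinocyte-like cells. The free RNA held more of it than the cells, at 8.11 CPM (4.64 to 13.2, 16 UMIs) in PG against 0.262 CPM over all kept cells, and 3 UMIs in skin. Cyp17a1, which makes the androgen precursors, had 42 UMIs in skin keratinocyte-like cells (2.38 CPM) and 1 in those of PG. Pgr, the progesterone receptor, had 3 and 1 UMIs in the keratinocyte-like cells.

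Of these genes, 9 of 29 compared were higher and 4 lower in sebocyte-like than in keratinocyte-like cells of skin, where 16.2% of all genes were higher and 10.2% lower, and 10 of 30 were higher and 5 lower in PG, against 8.57% and 21.9%. Of the Hsd17b list, 5 of 6 compared were higher in skin, among them Hsd17b14 on 1 UMI, and 3 of 4 in PG. Hsd17b12, which elongates fatty acids, stood at 703 CPM in skin and 969 CPM in PG sebocyte-like cells against 58.6 and 78.2 CPM in keratinocyte-like cells. Hsd17b4, of peroxisomal fatty acid oxidation, stood at 166 and 259 CPM against 23.0 and 55.1 CPM, and Hsd17b7, of cholesterol synthesis, at 102 and 30.9 CPM against 19.0 and 6.48 CPM. Hsd17b10, of mitochondria, stood at 268 and 297 CPM against 71.4 and 188 CPM.

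In fibroblast-like cells 14 of 33 genes compared were higher and 2 lower than in keratinocyte-like cells of skin, against 21.6% and 18.1% of all genes, and 15 of 29 were higher and 4 lower in PG, against 22.4% and 18.5%. Hsd11b1, which regenerates active glucocorticoid, stood at 83.1 CPM in skin and 577 CPM in PG fibroblast-like cells, and H6pd, which supplies its cofactor, at 26.6 and 105 CPM. Skin T cell-like cells held Hsd11b1 at 93.7 CPM (40.5 to 185, 8 UMIs), an interval that overlaps the fibroblast-like one (70.3 to 97.5). PG sebocyte-like cells also held Hsd11b1, at 134 CPM, against 4.62 CPM (1 UMI) in skin. Sult1e1, the estrogen sulfotransferase, stood at 75.9 and 430 CPM in fibroblast-like and at 0.226 and 2.16 CPM in keratinocyte-like cells. Sult2b1, which sulfates cholesterol in the epidermis, stood at 45.7 CPM in keratinocyte-like cells of skin and 10.2 CPM in those of PG. Hair matrix-like cells of skin held more of it, at 103 CPM (88.0 to 120, 163 UMIs).

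Of the receptors, Nr3c1, the glucocorticoid receptor, stood at 182 and 130 CPM in fibroblast-like, 116 and 56.8 CPM in sebocyte-like and 89.6 and 58.9 CPM in keratinocyte-like cells of skin and PG. Esr1, an estrogen receptor, was at 73.1 CPM in skin and 24.0 CPM in PG fibroblast-like cells, and at 1.19 and 22.5 CPM in keratinocyte-like cells. Fkbp4, the co-chaperone that is a counterpart of Fkbp5, stood at 162 and 368 CPM in sebocyte-like and 109 and 191 CPM in keratinocyte-like cells.

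The PG over skin ratio of Fkbp5 in keratinocyte-like cells had the opposite sign to that of most other genes that glucocorticoids commonly induce (Tsc22d3, Per1, Klf9, Zbtb16, Sgk1, Dusp1). In keratinocyte-like cells 4 of the 6 were lower in PG and none higher, with a median log2 ratio of -1.70 beside 1.17 for Fkbp5, where 20.9% of all genes were lower and 17.6% higher, with a median of -0.02. Dusp1, also a gene of the early stress response, stood at 612 CPM in skin and 73.5 CPM in PG, Klf9 stood at 86.7 and 20.98 CPM, and Zbtb16 at 22.7 and 2.80 CPM. Tsc22d3, at 44.0 and 46.5 CPM, and Per1, at 20.7 and 26.6 CPM, had the same sign as Fkbp5 and were not called. In sebocyte-like cells 4 of the 6 were lower and Tsc22d3 was higher in PG, at 96.8 against 23.1 CPM (5 UMIs), where 20% of all genes were lower and 14.1% higher. The lower genes also had few UMIs in skin sebocyte-like cells, 2 for Zbtb16, 4 for Sgk1, 15 for Klf9 and 17 for Dusp1. In fibroblast-like cells none of the 6 was called in either direction, against 10.4% lower and 12% higher. In macrophage and dendritic-like cells, where Fkbp5 was lower in PG, the genes went both ways. Sgk1 stood at 16.2 CPM in skin and 442 CPM in PG, Per1 at 46.3 and 106 CPM and Dusp1 at 916 and 1099 CPM. Klf9 stood at 34.7 and 10.6 CPM and Tsc22d3 at 164 and 106 CPM, and Zbtb16 had 1 UMI in PG and none in skin. The part of dissociation, stress or depth in these values was not tested.

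**Figure D4:**
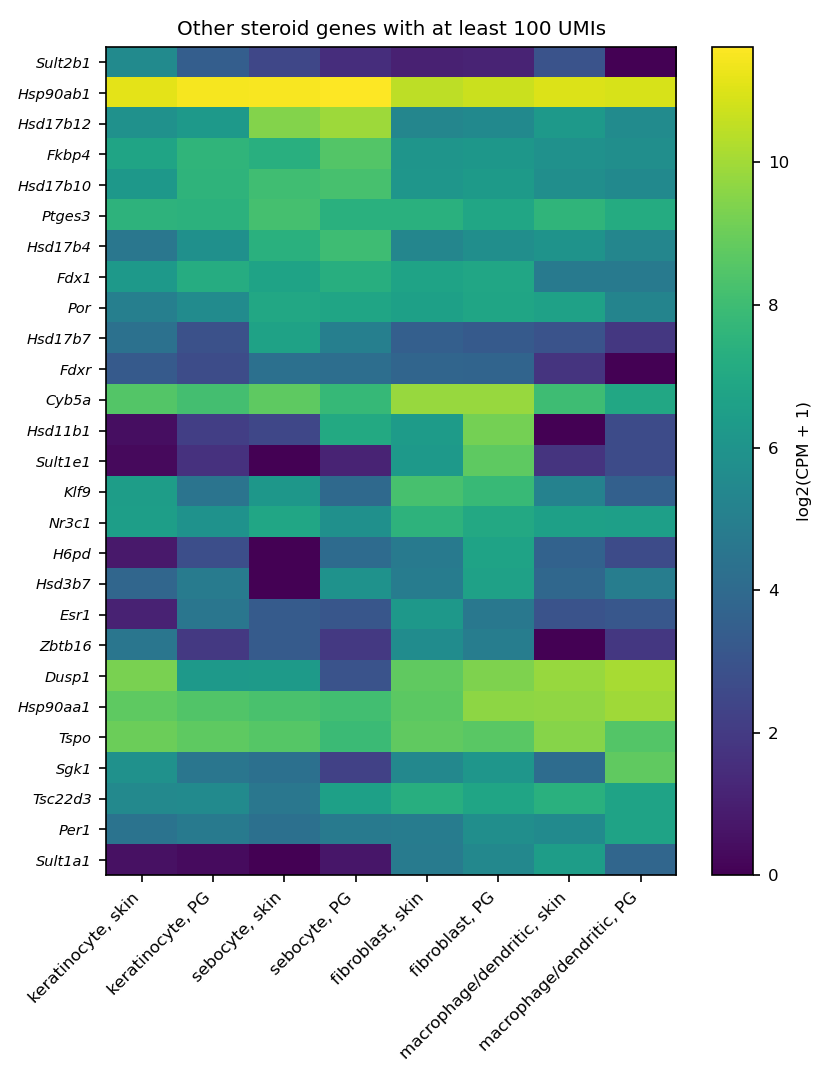
Heat map of the 27 other steroid genes with at least 100 UMIs, as log2(CPM + 1) in 4 classes of skin and PG. Within their rows, Hsd17b12 is brightest in the sebocyte-like columns (703 and 969 CPM), Hsd11b1 and Sult1e1 in PG fibroblast-like cells (577 and 430 CPM) and Dusp1 is darkest in PG sebocyte-like cells.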

How the data were processed

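UMI counts per gene and barcode were deposited by the authors as Cell Ranger 4 wrote them, per the file headers, for 1 library of back skin and 1 of preputial gland. The submitters' processing notes name mm10, and the annotation release is not given in the sources used here. The counts were not normalized and no barcode had been removed. Columns left unused numbered 0. Barcodes with at least 500 genes, 1000 UMIs and at most 10% mitochondrial UMIs were kept, and doublets were not removed. A cell was given a class when at least 3 of its markers exceeded what free RNA at 20% of the cell's UMIs would give (tail 0.01) and no unrelated class had more than 2. Epithelial classes counted as related. A cell that passed the keratinocyte gate and also the sebocyte or the hair matrix gate was given the latter class. Sebocyte-like cells with at least 3 suprabasal markers or at least 1 hair marker were set apart. This gate was set after the cells had been seen. UMIs were summed per class and divided by the class total (CPM), with exact Poisson, binomial and Clopper-Pearson 95% intervals, computed with scipy 1.17.1, pandas 2.3.3 and numpy 2.4.6 under Python 3.11.15. The ratio and gate code was tested on simulated data. Depth was 27407186 UMIs in 8899 skin cells and 15270076 in 4699 PG cells. All members are named, other steroid genes by listed pathway, those with the largest values and those past 2-fold first, and for each member with at least 50 UMIs the 3 genes most like it (1 gene is not reported here). Members, lists and comparisons were chosen with earlier results of these data known. Filters on genes, UMIs and mitochondrial share, doublets, the gate, clustering, free RNA, scaling and summing were varied.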

Additional observations from a re-analysis of the deposited data

Results flagged for a closer look

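The sign of a ratio between classes differed between the tissues for 5 members, and the difference itself was not tested, since each tissue is 1 library. Hsd17b2 had a log2 ratio of sebocyte-like over keratinocyte-like cells of 4.77 in skin, on 2 and 6 UMIs, and of -1.38 in PG, on 17 and 109 UMIs. Akr1c18 had 5.03 in skin, on 10 and 25 UMIs, and -2.79 in PG, on 3 and 51 UMIs. Fibroblast-like over sebocyte-like cells, Akr1c18 had -0.41 in skin and 4.75 in PG, and Srd5a3 had 1.89 and -0.92. Fibroblast-like over keratinocyte-like cells, Srd5a3 had 0.61 in skin and -0.98 in PG, and Srd5a1 had -1.38 and 0.29, where the PG interval includes no difference (-0.42 to 0.93). Macrophage and dendritic-like over keratinocyte-like cells, Fkbp5 had 1.92 in skin, on 11 and 119 UMIs, and -2.51 in PG, on 1 and 119 UMIs, and Srd5a3 had 0.52 and -0.54. Duct-like over basal-like keratinocytes, Srd5a1 had 0.72 in skin and -0.36 in PG, and Fkbp5 had 0.063 and -1.43. Several of these signs are not settled by the counts. The skin sebocyte-like intervals of Srd5a3 (1 UMI) and Akr1c18 include the fibroblast-like levels. The macrophage and dendritic-like intervals of Srd5a3, on 7 UMIs in skin and 9 in PG, include the keratinocyte-like levels. The duct-like intervals of Srd5a1 in PG and of Fkbp5 in skin include the basal-like levels.

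The barcodes left out for a mitochondrial share above 10% carried members too. In the 232 barcodes of skin, Srd5a1 stood at 27.4 CPM, Srd5a3 at 19.2 CPM and Fkbp5 at 35.6 CPM, which for Fkbp5 is a log2 ratio of 1.21 (0.29 to 2.0) over the kept cells. Hsd3b6 stood at 5.48 CPM in these skin barcodes, on 2 UMIs, beside 5 UMIs in the kept skin cells (log2 ratio 4.91, 1.52 to 7.52). In the 662 barcodes of PG, Srd5a1 stood at 39.0 CPM, Srd5a3 at 25.002 CPM, Hsd17b11 at 3.49 CPM, Akr1c18 at 4.07 CPM and Fkbp5 at 37.8 CPM (log2 ratio to the kept cells 0.57, 0.16 to 0.95). Hsd17b2 stood at 2.33 CPM there, below the kept cells (log2 ratio -2.02, -3.91 to -0.63).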

How the results depend on the processing

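Each member's ratio was recomputed under up to 13 alternatives, and 25 of 565 values had the opposite sign to the reported value. For 23 of these the reported value was not 2-fold and its interval included no difference, and the other 2 were Srd5a3 ratios. In skin its log2 ratio of sebocyte-like over keratinocyte-like cells was 0.64 instead of -1.28 with the cells set apart counted as sebocyte-like, and the PG value follows. Besides these 2, 7 values left the counting interval of the reported value. The number of members at least 2-fold apart stayed within 1.5 times the reported number in 102 cases and left that range in 7. This compares numbers alone, so a number could stay the same while the members behind it changed. Under a limit of 1000 genes and 2000 UMIs, which left 53 of the 523 PG fibroblast-like cells, the number was 2 instead of 1 for PG over skin in fibroblast-like cells, 1 instead of 2 in macrophage and dendritic-like cells, 2 instead of 4 for fibroblast-like over keratinocyte-like cells of PG and 0 instead of 1 for late-like over basal-marker sebocytes of PG, and the Srd5a3 log2 ratio of fibroblast-like over keratinocyte-like cells of PG was 0.14 instead of -0.98. The late-like number was also 0 with doublets removed (634 skin and 177 PG cells) and with the cells set apart counted as sebocyte-like, and the macrophage and dendritic-like number was 1 with Leiden clusters, which gave no value for skin sebocytes. The cause of these changes was not tested. Over the alternatives the sebocyte-like over keratinocyte-like log2 ratio of Srd5a1 ranged from 1.52 to 2.76 in skin and from 1.22 to 1.74 in PG, that of Fkbp5 from 2.16 to 3.61 and from 1.21 to 1.62, and the PG over skin log2 ratio of Akr1c18 in sebocyte-like cells from -6.49 to -4.38. The PG over skin log2 ratio in sebocyte-like cells ranged from -1.55 to 0.079 for Hsd17b2 and from 0.36 to 3.32 for Srd5a3. Whether these 2 members were at least 2-fold apart there thus varied with the processing. No paired analysis was possible because each tissue has 1 pooled library. Depth limits the skin sebocyte-like values, which rest on 44 cells and 216246 UMIs, and those of classes with fewer UMIs, such as endothelial-like and T cell-like cells.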
